A study of Oryza sativa Japonica Group with 30 samples.

Results

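Cellulose is made at the plasma membrane by rosette-shaped complexes whose catalytic subunits are encoded by the cellulose synthase A (CESA) genes. Growing plant cells lay down a thin primary wall, and xylem and fibre cells add a thick secondary wall once they stop expanding. In rice, OsCESA4, OsCESA7 and OsCESA9 encode the subunits of the secondary wall complex, and loss of one of them gives brittle stems. The other genes described here are assigned to the primary wall.

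The family was taken as 9 loci, OsCESA1 to OsCESA9, of 55490 features in the expression table, with 3 secondary wall genes and 6 primary wall genes. The names follow a fixed list of identifiers, and for all 9 the chromosome number in the identifier was that of the same-named RefSeq gene. That check cannot tell apart names on the same chromosome. OsCESA3, OsCESA6 and OsCESA8 are all on chromosome 7, and OsCESA2 and OsCESA5 are both on chromosome 3. Leaf RNA of 4-leaf-stage rice seedlings was measured by RNA-Seq in 12 libraries, 3 per group. OE-19 is a single transgenic line carrying the full SNAC1 coding sequence behind a maize ubiquitin promoter, and ZH11 (Zhonghua 11) is the variety it was made in. The 4 groups were OE-19 under drought (SNAC1-D), OE-19 under normal watering (SNAC1-N), ZH11 under drought (ZH11-D) and ZH11 under normal watering (ZH11-N). For drought, water was withheld until leaves curled and yellowed, and plants of both genotypes shared pots. The paper describes the drought stress of its RNA-Seq as moderate. The questions addressed were whether drought changed the CESA transcripts, whether secondary and primary wall genes did so to the same extent, and whether SNAC1 overexpression changed either.

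Levels are FPKM, in which the fragments of a gene are divided by its exon length and by the mapped reads of the library, so that levels of different genes can be compared. Fragment counts are not among the values used here, and the sequencing depth is therefore unknown. SNAC1 (LOC_Os03g60080), the transcription factor gene that OE-19 carries, averaged 798 FPKM in SNAC1-D, against 847 FPKM in SNAC1-N, and 430 FPKM in ZH11-D, against 37.2 FPKM in ZH11-N. Summed levels of 4 leaf markers ranged from 8291 to 16160 FPKM in SNAC1-D, against 33725 to 50971 FPKM in SNAC1-N. In ZH11 they ranged from 7916 to 16060 FPKM under drought, against 34353 to 56519 FPKM under normal watering. A root marker was at 0 in the drought libraries and at most 1.01 FPKM elsewhere, and a shoot meristem marker was at 0 in all 12. The watered libraries numbered 1 stood apart from the other watered ones. Over the 19979 features whose mean FPKM reached 1, they had a median Spearman rho of 0.891 and 0.868 with the other watered libraries, against 0.927 to 0.935 for numbers 2 and 3. The drought libraries numbered 1 did not stand apart by the same measure, with a median rho of 0.966 and 0.963 with the other drought libraries, against 0.964 to 0.975 for numbers 2 and 3. They were nearer to the watered libraries, with a median rho of 0.741 and 0.75, against 0.649 to 0.691 for the other drought libraries. CESA results are also given without the libraries numbered 1.

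All 9 CESA genes were transcribed in every library, from 2.86 to 169 FPKM, and all 9 passed the filter on the mean. Their summed level was 172.5 ± 68.4 FPKM in SNAC1-D (SD, n = 3), against 669.6 ± 140.5 in SNAC1-N. In ZH11 it was 149.3 ± 75.2 FPKM in ZH11-D, against 562.2 ± 212.7 in ZH11-N. In leaf RNA, fewer cells that make a transcript and less of it per cell cannot be told apart.

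Each gene was tested between groups with limma on log2(FPKM + 0.5), in 1 fit of all 4 groups. A gene was called where the log2FC was at least 1 in size and the adjusted p-value was under 0.05 over all features tested. All 9 CESA genes were called lower under drought in OE-19, where 17.9% of the tested features were called lower. In ZH11 all 9 were likewise called lower, against 18.2% of the features. Both calls were made for 16.5% of the features. Across the 9 genes the median log2FC was -1.78 for OE-19 and -1.73 for ZH11, whereas over all tested features it was 0.07 for OE-19 and 0.06 for ZH11. The 2 drought comparisons share no libraries, but their plants shared pots.

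**Figure D1:**
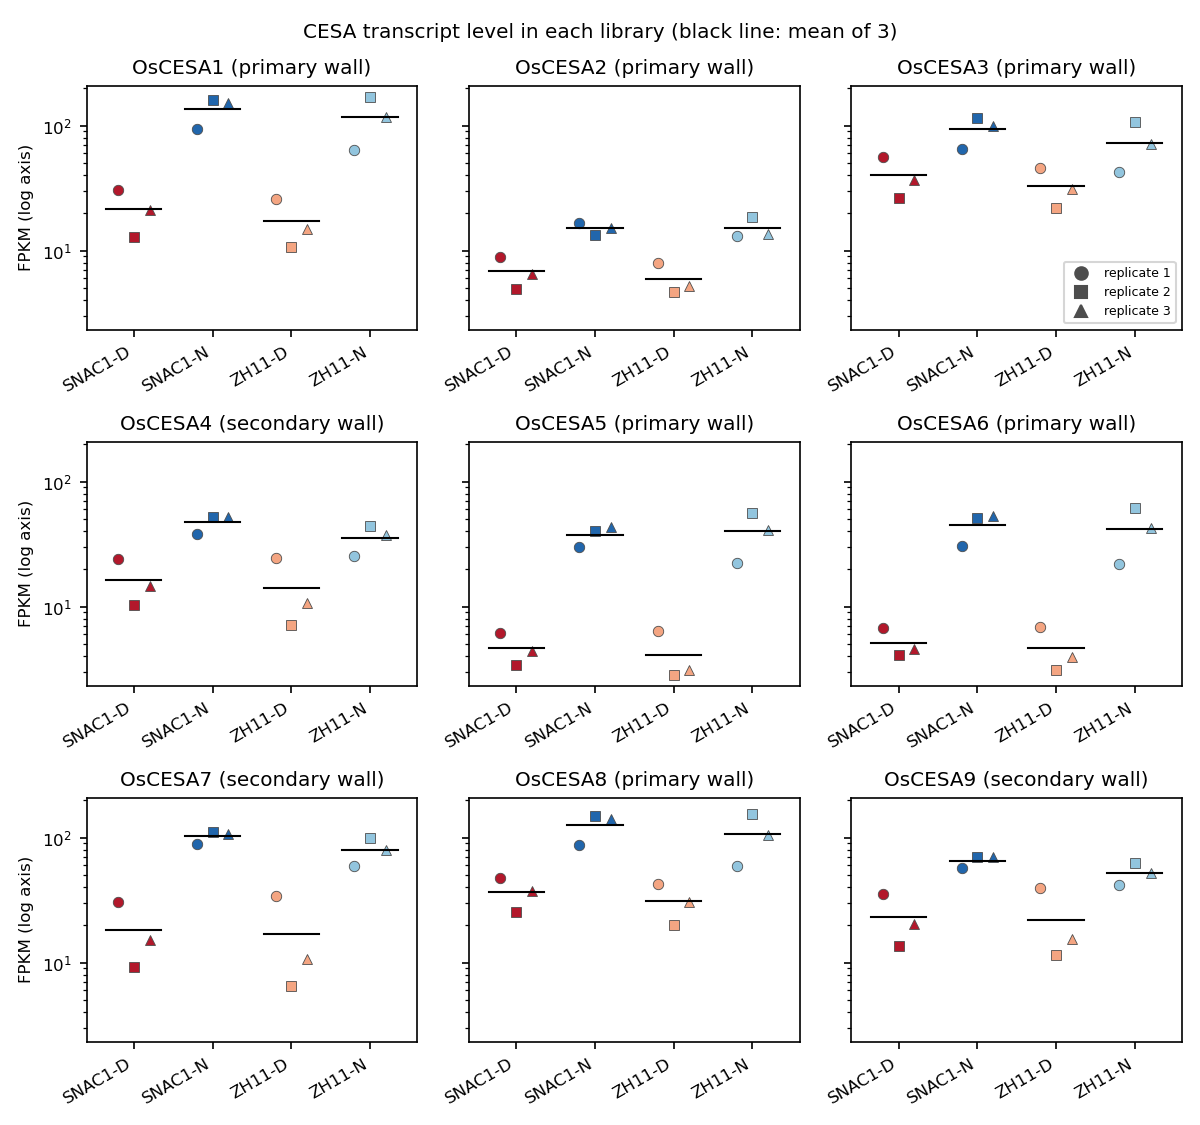
FPKM on a log axis for each CESA gene in the 12 libraries, with the groups along the horizontal axis, 1 symbol per replicate number and a black line at the mean of 3. Within each genotype the drought libraries lie below the watered ones, except that OsCESA3 in ZH11-D replicate 1 (45.6) is above ZH11-N replicate 1 (42.6). Across genotypes, OsCESA3 in SNAC1-D replicate 1 (56.4) is also above ZH11-N replicate 1.

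Among the primary wall genes, OsCESA6 (LOC_Os07g14850, chromosome 7) and OsCESA5 (LOC_Os03g62090, chromosome 3) had the largest falls under drought. OsCESA6 had 6.71, 4.08 and 4.58 FPKM in SNAC1-D, against 30.6, 51.5 and 53.4 FPKM in SNAC1-N. Its levels were 6.87, 3.11 and 3.96 FPKM in ZH11-D and 21.8, 61.9 and 42.8 FPKM in ZH11-N. No drought library came near a watered one, and the log2FC was -3.01 in OE-19 (standard error 0.398, limma adjusted p = 0.000169) and -3.0 in ZH11 (limma adjusted p = 0.000157). OsCESA5 had 6.11, 3.4 and 4.45 FPKM in SNAC1-D, against 29.8, 40.1 and 43.3 FPKM in SNAC1-N. In ZH11 it had 6.33, 2.86 and 3.13 FPKM under drought, against 22.2, 56.5 and 41.4 FPKM under normal watering. The gap between the groups was again wide, with log2FC values of -2.91 for OE-19 (standard error 0.371, limma adjusted p = 0.000134) and -3.12 for ZH11 (limma adjusted p = 7.98e-05).

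OsCESA1 (LOC_Os05g08370, chromosome 5) was the most abundant CESA transcript in watered leaves. It had 30.4, 13.0 and 21.0 FPKM in SNAC1-D, against 94.7, 159 and 153 FPKM in SNAC1-N. The levels were 26.1, 10.7 and 14.8 FPKM in ZH11-D, against 64.2, 169 and 118 FPKM in ZH11-N. In both genotypes even the highest drought library was below the lowest watered one, and the log2FC was -2.68 in OE-19 (standard error 0.442, limma adjusted p = 0.000638) and -2.72 in ZH11 (limma adjusted p = 0.000544). OsCESA8 (LOC_Os07g10770, chromosome 7), next in level in watered leaves, had 47.2, 25.4 and 37.2 FPKM in SNAC1-D, against 87.6, 150.3 and 142 FPKM in SNAC1-N. In ZH11 it had 42.6, 20.0 and 30.7 FPKM under drought, against 59.9, 156 and 106 FPKM under normal watering. Groups did not overlap, and the log2FC was smaller in size than that of OsCESA1, with values of -1.78 for OE-19 (standard error 0.399, limma adjusted p = 0.00377) and -1.73 for ZH11 (limma adjusted p = 0.00436).

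OsCESA3 and OsCESA2 had the smallest drought differences among the 9. OsCESA3 (LOC_Os07g24190, chromosome 7) had 56.4, 26.6 and 37.0 FPKM in SNAC1-D, against 65.1, 116 and 100.2 FPKM in SNAC1-N. For ZH11 the levels were 45.6, 22.0 and 31.2 FPKM in ZH11-D, against 42.6, 106 and 70.8 FPKM in ZH11-N, and these 2 groups overlapped. Its log2FC was -1.24 in OE-19 (standard error 0.403, limma adjusted p = 0.0246) and -1.11 in ZH11 (limma adjusted p = 0.0393). OsCESA2 (LOC_Os03g59340, chromosome 3), the least abundant CESA transcript in watered leaves, had 8.97, 4.96 and 6.54 FPKM in SNAC1-D, against 16.6, 13.4 and 15.2 FPKM in SNAC1-N. Its levels in ZH11 were 8.0, 4.69 and 5.24 FPKM under drought and 13.1, 18.7 and 13.6 FPKM under normal watering. Both genotypes showed separate groups, with log2FC values of -1.12 for OE-19 (standard error 0.242, limma adjusted p = 0.00315) and -1.29 for ZH11 (limma adjusted p = 0.00132).

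Of the 3 secondary wall genes, OsCESA7 had the log2FC furthest below 0 in both genotypes. OsCESA7 (LOC_Os10g32980, chromosome 10) had 30.5, 9.21 and 15.3 FPKM in SNAC1-D, against 88.7, 112 and 107 FPKM in SNAC1-N. In ZH11 the levels were 33.9, 6.53 and 10.6 FPKM under drought, against 59.3, 100 and 79.5 FPKM under normal watering. The groups were separate, and the log2FC was -2.61 in OE-19 (standard error 0.553, limma adjusted p = 0.00281) and -2.49 in ZH11 (limma adjusted p = 0.00348). OsCESA4 (LOC_Os01g54620, chromosome 1) had 24.1, 10.2 and 14.5 FPKM in SNAC1-D, against 38.0, 51.9 and 52.0 FPKM in SNAC1-N. In ZH11 it had 24.5, 7.18 and 10.7 FPKM under drought, against 25.7, 44.1 and 37.3 FPKM under normal watering, so that ZH11-D replicate 1 came close to ZH11-N replicate 1. Its log2FC was -1.58 in OE-19 (standard error 0.428, limma adjusted p = 0.0106) and -1.46 in ZH11 (limma adjusted p = 0.0154). OsCESA9 (LOC_Os09g25490, chromosome 9) had 35.4, 13.7 and 20.5 FPKM in SNAC1-D, against 57.0, 70.2 and 69.5 FPKM in SNAC1-N. The ZH11 levels were 39.4, 11.6 and 15.4 FPKM under drought and 41.6, 62.9 and 52.0 FPKM under normal watering. As with OsCESA4, the libraries numbered 1 lay close together, and the log2FC was -1.58 in OE-19 (standard error 0.436, limma adjusted p = 0.0116) and -1.40 in ZH11 (limma adjusted p = 0.0202).

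**Figure D2:**
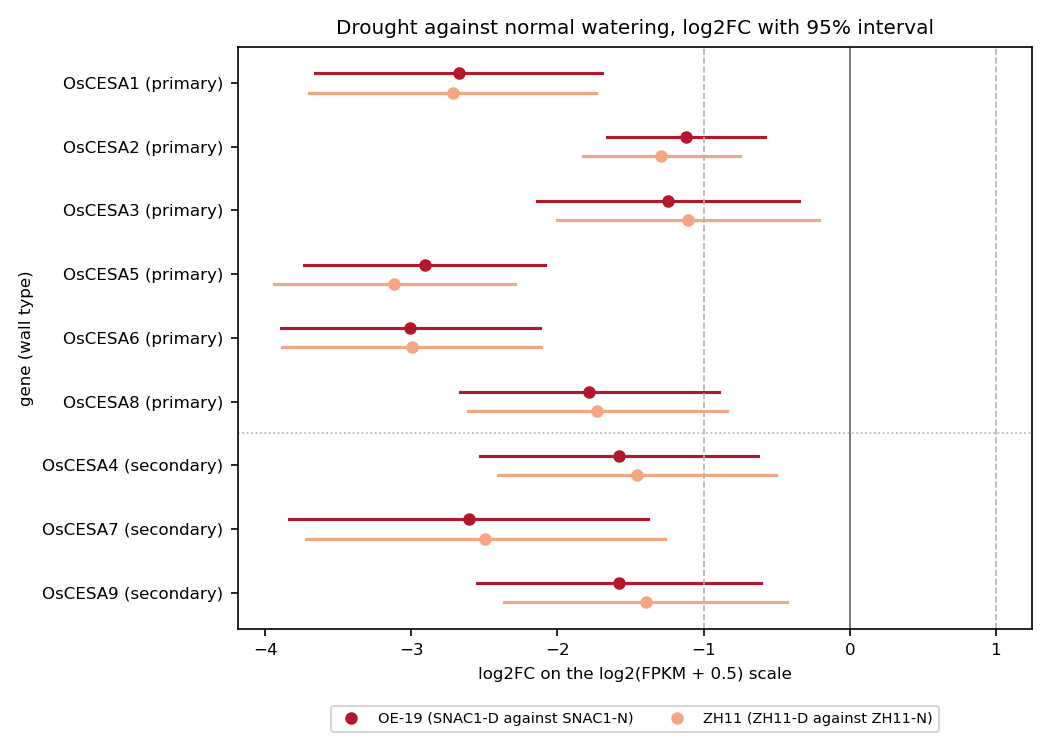
log2FC of drought against normal watering for each CESA gene (point) with its 95% interval (line), in OE-19 and in ZH11, with dashed lines at a log2FC of 1 in size. Values run from -3.01 (OsCESA6) to -1.12 (OsCESA2) in OE-19 and from -3.12 (OsCESA5) to -1.11 (OsCESA3) in ZH11.

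For 9 of 9 genes in OE-19 every SNAC1-D library was below every SNAC1-N library, a pattern that 29.7% of the tested features showed. In ZH11 the same held for 8 of 9, with OsCESA3 as the exception, against 28.1% of the features. A two-sided exact permutation test of each gene alone gave p = 0.1 in these cases, the smallest that 3 libraries against 3 allow, and p = 0.2 for OsCESA3 in ZH11. Both classes contained strong and weak responders. The secondary wall genes had a median log2FC of -1.58 for OE-19 and -1.46 for ZH11, and the primary wall genes one of -2.23 for OE-19 and -2.22 for ZH11. The primary wall genes alone spanned -3.01 to -1.12 in OE-19, a range that held all 3 secondary wall genes.

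OsCESA1, OsCESA5, OsCESA6, OsCESA7 and OsCESA8 were called lower in both genotypes under each of 25 alternative settings. The other 4 lost the call in at least 1 genotype when 1 library was left out. In some of these fits the estimate hardly moved. OsCESA9 in ZH11 without ZH11-N replicate 3 had a log2FC of -1.39, against -1.40 with all libraries. In others it moved more, as for OsCESA3 in ZH11 without ZH11-N replicate 2, at -0.79 against -1.11. Without SNAC1-D replicate 2, OsCESA2 (log2FC -0.93), OsCESA3 (limma adjusted p = 0.0974) and OsCESA9 (limma adjusted p = 0.0514) lost the call in OE-19. There OsCESA3 also lost it without SNAC1-D replicate 3, SNAC1-N replicate 2 or SNAC1-N replicate 3 (limma adjusted p = 0.0649, 0.0826 and 0.0685). In ZH11, OsCESA3 and OsCESA9 lost the call without ZH11-D replicate 2, ZH11-D replicate 3, ZH11-N replicate 2 or ZH11-N replicate 3, with a limma adjusted p of 0.0887 to 0.145 for OsCESA3 and of 0.0503 to 0.0851 for OsCESA9. OsCESA4 lost it without ZH11-D replicate 2, ZH11-D replicate 3 or ZH11-N replicate 2 (limma adjusted p = 0.0652, 0.053 and 0.0544). OsCESA3 in ZH11 further lost it without SNAC1-D replicate 3 or SNAC1-N replicate 3 (limma adjusted p = 0.0545 and 0.0519), which enter that comparison only through the shared estimate of the spread.

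The libraries numbered 1 had the smaller drought differences. In both drought groups replicate 1 was the highest for 9 of 9 genes, a pattern of 24.3% of the tested features. In both watered groups replicate 1 was the lowest for 8 of 9 genes, against 42.2% of the features, and the exception was OsCESA2 in SNAC1-N. Without the drought libraries numbered 1, all 9 genes were called in both genotypes and their median log2FC was -1.99 for OE-19 and -1.98 for ZH11. Without the watered ones, all 9 were called and the medians were -2.03 for OE-19 and -2.09 for ZH11. The part that the overall standing of these libraries had in the CESA values was not tested.

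The order of mean CESA levels also differed between watering conditions. In SNAC1-D the order of mean levels was OsCESA3, OsCESA8, OsCESA9, OsCESA1, OsCESA7, OsCESA4, OsCESA2, OsCESA6 and OsCESA5, and ZH11-D had the same order. In SNAC1-N it was OsCESA1, OsCESA8, OsCESA7, OsCESA3, OsCESA9, OsCESA4, OsCESA6, OsCESA5 and OsCESA2. ZH11-N differed from SNAC1-N only in that OsCESA4 came after OsCESA6 and OsCESA5. Most neighbours in these orders had overlapping ranges over the 3 libraries of a group. The gaps were between OsCESA4 and OsCESA2 in SNAC1-D, between OsCESA9 and OsCESA4 and between OsCESA5 and OsCESA2 in SNAC1-N, and between OsCESA4 and OsCESA2 in ZH11-N. In ZH11-D all neighbours overlapped. By mean level, OsCESA1 was in the top 26.6% of tested features in SNAC1-D, against the top 4.03% in SNAC1-N, and in the top 32.6% in ZH11-D, against the top 4.84% in ZH11-N. OsCESA3 was in the top 15% in SNAC1-D, against 6.23% in SNAC1-N.

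The balance between the classes was read as the summed FPKM of the 3 secondary wall genes over that of the 6 primary wall genes. This ratio was 0.578, 0.428 and 0.454 in SNAC1-D, against 0.566, 0.441 and 0.450 in SNAC1-N. It was 0.722, 0.399 and 0.412 in ZH11-D, against 0.565, 0.364 and 0.431 in ZH11-N. Drought and watered libraries overlapped in both genotypes, and replicate 1 was the highest in every group. The means were 0.487 ± 0.080 in SNAC1-D and 0.486 ± 0.070 in SNAC1-N, and 0.511 ± 0.183 in ZH11-D and 0.453 ± 0.103 in ZH11-N (SD, n = 3 each). On the log2 scale, drought minus normal was 0.0001 for OE-19 and 0.14 for ZH11. With the mean of the log2 levels in place of the summed FPKM, which gives low and high genes equal weight, the difference was 0.23 for OE-19 and 0.41 for ZH11. With only OsCESA1, OsCESA3 and OsCESA8 as primary wall genes, the mean ratio was 0.570 ± 0.089 in SNAC1-D and 0.623 ± 0.104 in SNAC1-N. In ZH11 that ratio was 0.605 ± 0.218 under drought and 0.604 ± 0.142 under normal watering. The direction of the small differences in OE-19 thus depended on the measure.

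Within each class the composition did separate the watering conditions. OsCESA7 made up 33.9, 27.8 and 30.4% of the secondary wall total in SNAC1-D, against 48.3, 47.8 and 46.7% in SNAC1-N. In ZH11-D it made up 34.7, 25.8 and 29.0%, against 46.9, 48.3 and 47.1% in ZH11-N. No drought library exceeded 34.7%, and all 6 watered libraries were within 46.7 to 48.3%. OsCESA9 held 40.5 ± 1.0% of that total in SNAC1-D and 30.5 ± 0.5% in SNAC1-N (SD, n = 3 each). OsCESA4 held 28.9 ± 2.1% in SNAC1-D and 21.9 ± 1.1% in SNAC1-N.

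Among the primary wall genes, OsCESA1 made up 19.5, 16.8 and 19.0% of the class total in SNAC1-D, against 29.2, 30.0 and 30.2% in SNAC1-N. In ZH11 its share was 19.3, 16.9 and 16.6% under drought, against 28.7, 29.8 and 30.1% under normal watering. The order was the opposite for OsCESA3, which held 36.2, 34.4 and 33.4% in SNAC1-D and 20.1, 21.9 and 19.8% in SNAC1-N. In ZH11-D OsCESA3 held 33.7, 34.7 and 35.1%, against 19.0, 18.7 and 18.1% in ZH11-N. OsCESA5 held 4.1 ± 0.3% in SNAC1-D and 8.4 ± 0.8% in SNAC1-N, and OsCESA6 held 4.6 ± 0.6% in SNAC1-D and 9.9 ± 0.6% in SNAC1-N (SD, n = 3 each). OsCESA8 held 32.2 ± 1.7% in SNAC1-D and 27.8 ± 0.7% in SNAC1-N. These shares follow from the same levels as the drought comparison and were not tested.

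**Figure D3:**
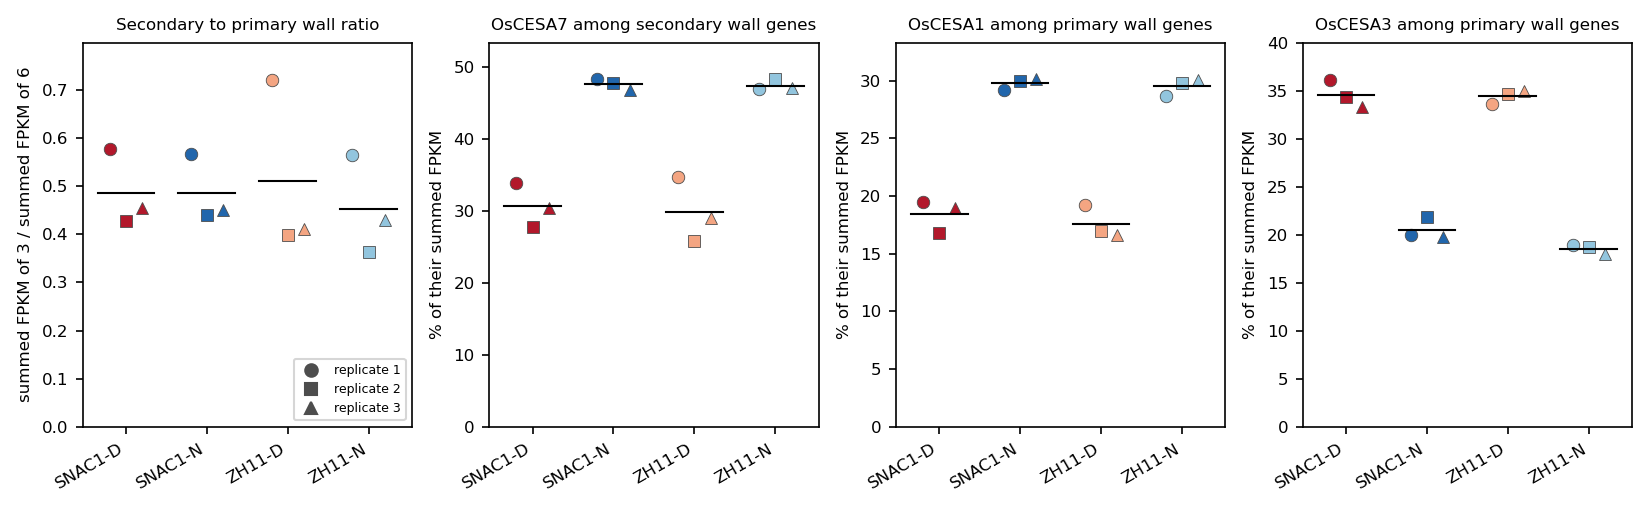
From left to right, the secondary to primary wall ratio of summed FPKM, the share of OsCESA7 in the secondary wall total, and the shares of OsCESA1 and OsCESA3 in the primary wall total, in percent, for each library (symbols by replicate number, black line at the mean of 3). The ratio overlaps between drought and watered groups, whereas OsCESA7 is at most 34.7% in the drought libraries and at least 46.7% in the watered ones.

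The ratio of 2 genes over the 12 libraries shows which of them kept a fixed proportion. OsCESA4 and OsCESA9 did so most closely of the 36 pairs, with an SD of the log2 ratio of 0.0997 and an OsCESA4 to OsCESA9 ratio of 0.617 to 0.750 in all libraries. OsCESA5 and OsCESA6 came next, with an SD of 0.122 and a ratio of 0.778 to 1.02. OsCESA7, by contrast, was 0.674 to 0.861 times OsCESA9 in SNAC1-D, against 1.53 to 1.60 times in SNAC1-N, and 0.565 to 0.860 times in ZH11-D, against 1.43 to 1.59 times in ZH11-N. OsCESA1 was 0.488 to 0.568 times OsCESA3 in SNAC1-D, against 1.37 to 1.53 times in SNAC1-N. In ZH11-D it was 0.474 to 0.572 times OsCESA3, against 1.51 to 1.66 times in ZH11-N. The SD between OsCESA2 and OsCESA6, both primary wall genes, was the largest at 1.00. These spreads are descriptions over libraries of 4 groups and are set largely by the drought difference.

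**Figure D4:**
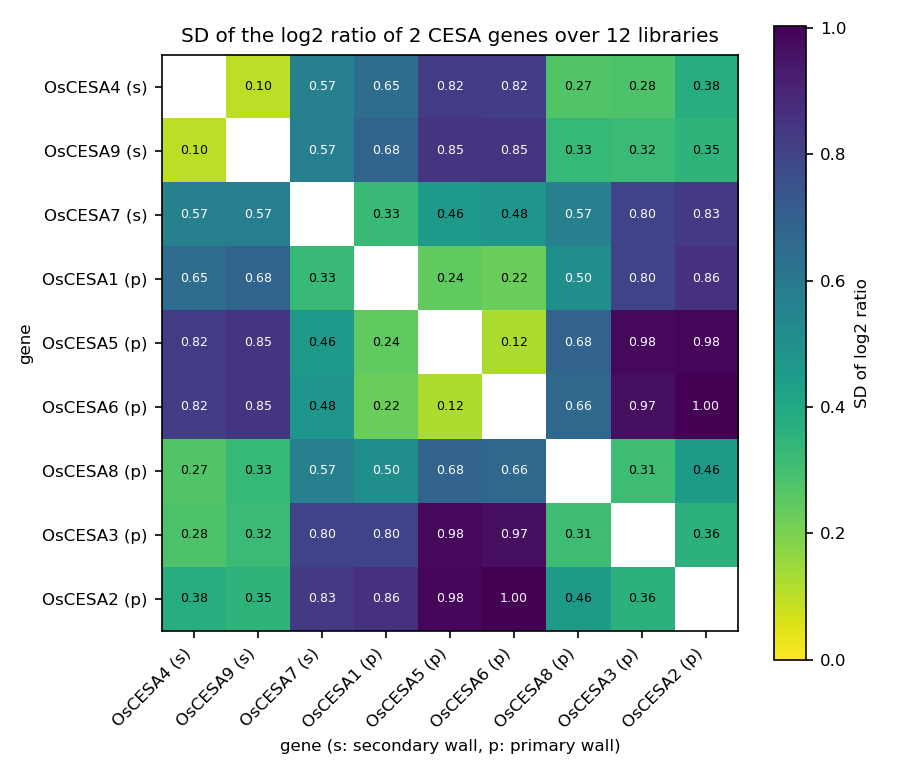
SD over the 12 libraries of the log2 ratio of each pair of CESA genes, on the log2(FPKM + 0.5) scale, with both axes listing the genes and s and p marking secondary and primary wall. OsCESA4 and OsCESA9 (0.10) and OsCESA5 and OsCESA6 (0.12) have the smallest values, and OsCESA7 is closer to OsCESA1 (0.33) than to OsCESA4 or OsCESA9 (0.57 each).

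Profiles over the 12 libraries crossed the wall classes. Each gene's log2(FPKM + 0.5) values were centred on their mean and compared with the mean profile of the other members of each class, as a root mean square difference. OsCESA7 was nearer to the primary wall profile (0.399) than to that of OsCESA4 and OsCESA9 (0.545). OsCESA2 was nearer to the secondary wall profile (0.476) than to the primary one (0.645), and so was OsCESA3 (0.430 against 0.595). The other 6 genes were nearest to their own class. Like the spreads of the pair ratios, these distances are descriptions and are set largely by the drought difference. Among the tested features other than the 9 genes, LOC_Os01g50750 was the nearest to the mean secondary wall profile, at 0.147 over 12 libraries, and it averaged 2.18 FPKM in SNAC1-D, against 8.37 FPKM in SNAC1-N. LOC_Os07g43990 was the nearest to the mean primary wall profile, at 0.0495, and it averaged 9.63 FPKM in SNAC1-D, against 42.3 FPKM in SNAC1-N. The next nearest to the primary profile, at 0.0791, was LOC_Os09g32080, which is on the cellulose assembly list described next.

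Cellulose deposition also needs proteins that guide and anchor the complexes, transcription factors that switch on wall genes, and related synthases for other glucans. Lists of 27 such loci were compiled from general knowledge, and the sources used here do not pair their identifiers with names. All 7 cellulose assembly loci passed the filter, and 4 were called lower in each genotype, where 17.9% of the tested features were called lower in OE-19 and 18.2% in ZH11. Their median log2FC was -1.42 for OE-19 and -1.37 for ZH11. Of the 27 loci, 17 passed the filter, 4 of them only through the watered groups, with a mean under 1 FPKM in both drought groups. For such loci the filter itself favoured a call of lower, so they are given by level alone, and the loci named here were chosen after their values were seen. They include 2 of the 6 wall regulator loci, LOC_Os12g33070 with a mean of 0.0605 FPKM in SNAC1-D, against 2.77 FPKM in SNAC1-N, and LOC_Os08g05520 with 0.751 FPKM in SNAC1-D, against 4.33 FPKM in SNAC1-N. Of the other 4 wall regulator loci, 1 was called lower and 1 higher in OE-19, and 2 lower and 1 higher in ZH11, against 13.2% of the tested features called higher in OE-19 and 13.8% in ZH11. The locus called higher, LOC_Os04g50770, averaged 5.74 FPKM in SNAC1-D, against 1.33 FPKM in SNAC1-N. Of the CSLD loci (cellulose synthase-like, D family), 2 of 5 passed. LOC_Os12g36890 did so through the watered groups, with a mean of 0.188 FPKM in SNAC1-D, against 3.13 FPKM in SNAC1-N, and LOC_Os06g02180 was not called. Of the CSLF loci, whose family makes mixed-linkage glucan in grasses, 2 of 7 passed. LOC_Os08g06380 was called lower in each genotype and averaged 32.7 FPKM in SNAC1-D, against 186 FPKM in SNAC1-N, while LOC_Os07g36630 passed through the watered groups, with 0.212 FPKM in SNAC1-D, against 6.02 FPKM in SNAC1-N. Another 2 CESA loci had at most 2.20 FPKM in any library and did not pass the filter. Of the leaf markers, 4 of 4 were called lower in OE-19 and 3 of 4 in ZH11, and their part in the CESA values was not tested.

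OE-19 did not differ detectably from ZH11 in any CESA transcript. Under drought 0 of 9 genes were called, where 0.305% of the tested features were, and under normal watering 0 of 9, against 0.265%. Even before adjustment, limma gave no p under 0.05 for these genes in either condition, and each adjusted p was 1. The estimates were nearly all above 0. Under drought the log2FC of OE-19 against ZH11 ran from 0.16 (OsCESA9) to 0.32 (OsCESA1), and under normal watering from -0.003 (OsCESA5) to 0.42 (OsCESA4). SNAC1 itself was called higher in OE-19 under normal watering (log2FC 4.51, limma adjusted p = 1.03e-05). It was not called under drought (log2FC 0.90, standard error 0.253, limma adjusted p = 0.949), where the SNAC1 difference was smaller. Even so, SNAC1 was at least 667 FPKM in SNAC1-D, against at most 530 FPKM in ZH11-D. A gene could therefore differ without being called, and 0 of 9 calls does not show equal CESA levels.

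Replicate numbers paired the genotypes within a watering condition. In 7 of 9 genes OE-19 was higher than ZH11 in at least 5 of the 6 same-numbered pairs, a pattern of 11.6% of the tested features. OsCESA3 was higher in OE-19 in 6 of 6 pairs, and OsCESA5 and OsCESA6 in 4 of 6. With the replicate number as a block within each watering condition, the smallest adjusted p of limma was 0.863, for OsCESA3 under normal watering, and 0 of 9 genes were called. The block narrowed the intervals, which still held 0 for all 9 genes in both conditions. For OsCESA7, the widest, the 95% interval of the log2FC with the block was -0.31 to 0.86 under drought and -0.19 to 0.97 under normal watering, against -0.96 to 1.5 and -0.84 to 1.62 without it. For OsCESA2, the narrowest, it was -0.16 to 0.51 under drought and -0.33 to 0.34 under normal watering with the block, against -0.37 to 0.71 and -0.53 to 0.54 without it.

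Leaving out 1 library, which breaks its pair, turned the sign of several of these differences. Without SNAC1-D replicate 1, 6 of the 9 estimates under drought were below 0 and the median log2FC was -0.02, and without ZH11-D replicate 2 the median was -0.03. Under normal watering, OsCESA1, OsCESA2, OsCESA6 and OsCESA8 turned below 0 without ZH11-N replicate 1, at -0.10, -0.08, -0.23 and -0.06. OsCESA5, at -0.003 with all libraries, was the lowest in that fit at -0.37. Only 4 of the 9 estimates were then above 0, and the median was -0.06. The pairs numbered 1 were also left out whole. Without the drought libraries numbered 1 of both genotypes, 9 of 9 estimates under drought were above 0, from 0.18 to 0.49 with a median of 0.32. Without the watered ones, 7 of 9 estimates under normal watering were above 0, with a median of 0.19, and OsCESA2 (-0.16) and OsCESA5 (-0.21) were below 0.

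The drought response itself did not differ detectably between the genotypes. The difference of the drought log2FC, OE-19 minus ZH11, passed an adjusted p of 0.05 for 0 of 9 genes, where 0.02% of the tested features passed. Before adjustment 0 of 9 had a limma p under 0.05. The estimates ran from -0.18 (OsCESA9) to 0.21 (OsCESA5), with each adjusted p at 1. When replicate numbers were blocked, the 95% interval was -0.94 to 0.71 for OsCESA7 and -0.30 to 0.64 for OsCESA2, and without the block it was -1.85 to 1.62 for OsCESA7 and -0.59 to 0.93 for OsCESA2.

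**Figure D5:**
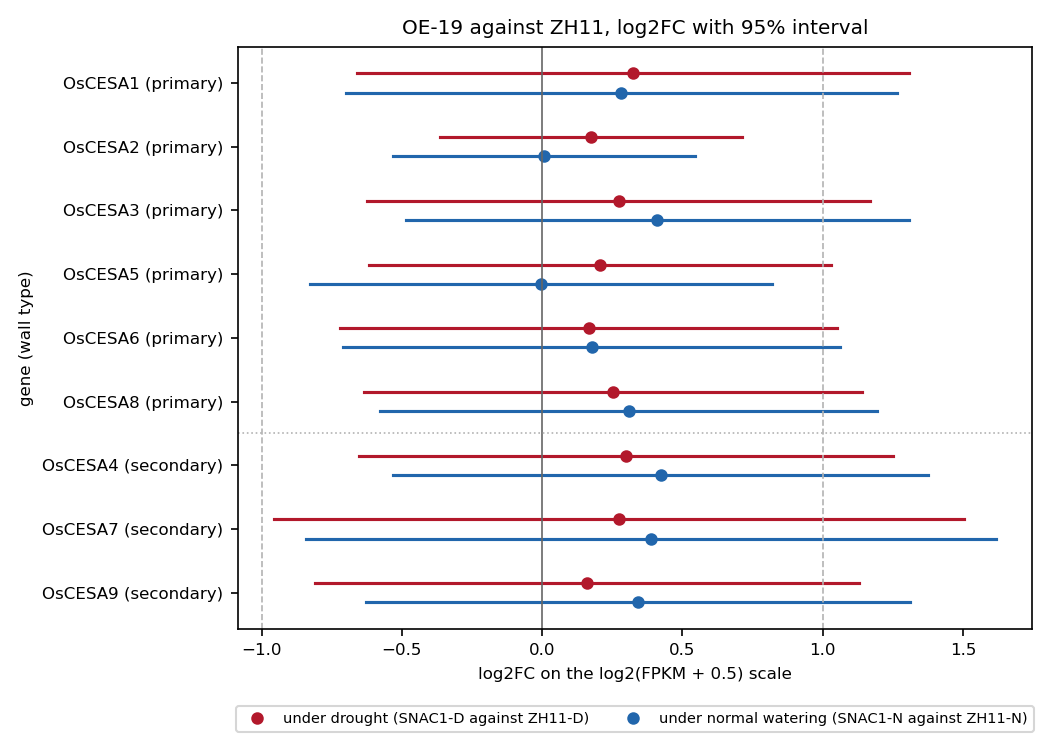
log2FC of OE-19 against ZH11 for each CESA gene (point) with its 95% interval (line) from the fit without a replicate block, under drought and under normal watering, with dashed lines at a log2FC of 1 in size. All intervals include 0, and the estimates lie between -0.003 and 0.42.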

How the data were processed

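RNA-Seq was analysed in 12 leaf libraries, and each library's group was taken from its label. Per the paper's methods the authors mapped reads to MSU 7.0 and computed FPKM, and the submitters' processing notes name HISAT2 and StringTie without versions. The deposited FPKM values carry no filter on low values, and how reads matching several related CESA genes were assigned is not given in the sources used here. The authors' thresholds on the log2FC and the FDR were kept. The notes also name DESeq2, without saying for which data. It needs counts and was not used here.

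From the deposited values, log2(FPKM + 0.5) was tested with limma 3.58.1 in R 4.3.3 (moderated test, variance trend, two-sided, Benjamini-Hochberg adjustment) for the 19979 features whose mean FPKM reached 1. Intervals are 95% limma intervals. The paper calls the replicates independent. Same-numbered libraries of OE-19 and ZH11 deviated together (r = 0.589, 0.58 and 0.211 under drought, 0.882, 0.486 and 0.507 under normal watering) and those of different watering did not (r = -0.127 to -0.0432), so the numbers pair genotypes within a watering condition, where the labels describe shared pots. Without fragment counts, the counting error of low FPKM values is unknown.

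Named genes were all 9 members, SNAC1 and up to 3 features nearest to each class profile. Some loci of the lists were named too, chosen after their values were seen. Members and lists were chosen with earlier results of these data known. Alternatives changed the pseudocount, filter, scaling, fit, block, variance trend, threshold and libraries. The 3 tables of SNAC1 ChIP-Seq intervals were not used here, since no MSU 7.0 annotation was used to place them beside the genes. RefSeq gene names served only to check chromosomes.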

Additional observations from a re-analysis of the deposited data

How the results depend on the processing

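Across 25 alternatives the count of CESA genes called lower under drought was 6 to 9 in OE-19 and 5 to 9 in ZH11, and all 9 log2FC stayed below 0 in each fit. It was 5 in ZH11 at a log2FC threshold of 1.5, without OsCESA2, OsCESA3, OsCESA4 and OsCESA9, since their log2FC is smaller in size. Leaving out 1 library gave 6 to 9 in both genotypes. Without a filter on low values, OsCESA3 lost the call in OE-19 (limma adjusted p = 0.0803), and OsCESA3, OsCESA4 and OsCESA9 did in ZH11 (limma adjusted p = 0.12, 0.0554 and 0.0699). OsCESA3 in ZH11 also lost it with only the libraries of the contrast (limma adjusted p = 0.0663) and with a replicate block across all libraries (limma adjusted p = 0.0647). The replicate block within each watering condition changed no call. No genotype comparison or difference of responses gave a called CESA gene under any alternative.

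The log2 secondary to primary wall ratio, drought minus normal, was 0.231 in OE-19 with the mean of log2 levels, which weights low genes more, and -0.13 to 0.12 without 1 library (ZH11 -0.14 to 0.31). With only OsCESA1, OsCESA3 and OsCESA8 as primary wall genes, the mean ratio in OE-19 was lower under drought (0.570 against 0.623).

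Signs of uncalled differences turned as follows. For the difference of responses, OsCESA6 was 0.0044 with a pseudocount of 0.1, OsCESA6 and OsCESA8 were 0.14 and 0.0627 without both watered libraries numbered 1, and OsCESA4, OsCESA6 and OsCESA7 were 0.0346, 0.0877 and 0.098 without both drought libraries numbered 1, an alternative chosen after seeing the data. OsCESA2, OE-19 against ZH11 under normal watering, was -0.16 without both watered libraries numbered 1. The cause was not tested.

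Without 1 library the differences of OE-19 against ZH11 under normal watering ranged from -0.10 to 0.60 (OsCESA1), -0.0846 to 0.16 (OsCESA2), -0.37 to 0.29 (OsCESA5), -0.23 to 0.51 (OsCESA6) and -0.0563 to 0.63 (OsCESA8). Under drought they ranged from -0.03 to 0.39 (OsCESA2), -0.0066 to 0.53 (OsCESA3), -0.0758 to 0.78 (OsCESA4), -0.0561 to 0.46 (OsCESA6), -0.22 to 0.93 (OsCESA7), -0.0277 to 0.51 (OsCESA8) and -0.19 to 0.67 (OsCESA9). The differences of responses ranged from -0.28 to 0.42 (OsCESA1), -0.0358 to 0.38 (OsCESA2), -0.45 to 0.20 (OsCESA3), -0.50 to 0.35 (OsCESA4), -0.0866 to 0.58 (OsCESA5), -0.35 to 0.40 (OsCESA6), -0.61 to 0.54 (OsCESA7), -0.38 to 0.31 (OsCESA8) and -0.54 to 0.33 (OsCESA9). The planned test of SNAC1 ChIP-Seq intervals at the members and its 2 alternatives were not run. Unknown depth limits what can be said of the lowest levels.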
